A study of Mus musculus with 12 samples.

Results

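The proteasome genes were taken by symbol, as the protein-coding genes whose name starts with Psm, a letter from a to g and a digit. Of the 55901 genes in the table, 50 were found. The core particle is encoded by 7 genes of the alpha ring, 7 of the beta ring and 3 of the immunoproteasome, with 2 further core genes (Psmb11 and Psma8) whose products are known from thymus and testis. Of the regulatory particle, the rule took in 6 ATPase genes and 11 non-ATPase genes, and left out others such as Sem1. The remaining genes code for 5 activators, 1 inhibitor and 7 assembly factors. The symbol rule also takes in Psmc3ip, which codes for a protein of homologous recombination and for no subunit. With a mean of at least 0.5 FPKM (fragments per kilobase of gene length, scaled to library depth), 45 of the 50 were tested, and Psma8, Psmb8, Psmb9, Psmb11 and Psme2b were below it.

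The proteasome is the barrel-shaped protease that degrades proteins tagged with ubiquitin. Its outer alpha rings gate the barrel, and its inner beta rings carry the active sites on the products of Psmb6 (caspase-like, β1), Psmb7 (trypsin-like, β2) and Psmb5 (chymotrypsin-like, β5). In immune cells and under interferon these are replaced by the products of Psmb9, Psmb10 and Psmb8 in that order, which gives the immunoproteasome. The cap of the 26S form recognises, unfolds and feeds in the substrate. Neurons rely on it for protein quality control and for remodelling of synapses.

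Primary neurons from the cerebral cortex of newborn C57BL/6J mice, cultured with arabinosylcytosine against dividing glia, gave 3 groups of 4 poly-A RNA libraries each. Control neurons were not injured. Trauma neurons were scratched and collected 24 h later, and Trauma+TGF-β1 neurons were scratched and kept with 10 ng/mL transforming growth factor β1 for the same 24 h. The scratch is a culture model of mechanical injury, and which cultures or litters the libraries came from is not given in the sources used here, so that p-values measure the spread between libraries, which may be technical. Of each library, between 15052486 and 17381671 reads fell on genes, and each Trauma+TGF-β1 library had fewer reads than each Trauma library (at most 15880694 against at least 16335960). Neuron markers were high in all libraries (Map2, Tubb3, Rbfox3, Snap25 and Syt1 summed to between 1012 and 1276 FPKM), and the 5 astrocyte markers summed to between 96.3 and 178 FPKM.

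The promoters of the genes on which the results turn are given first. The RefSeq table of GRCm38.p6 held a promoter, from 250 bases before the transcription start to 50 bases after it, for 42 of the 50 genes. Psmb5, Psmb6 and Psmb10 were lower with TGF-β1, and Psmc6 and Psme4 were higher than in Trauma. By the table's coordinates, Psmb5 (ENSMUSG00000022193) spans chr14:54614119-54618022, Psmb6 (ENSMUSG00000018286) chr11:70525367-70527858, Psmb7 (ENSMUSG00000026750) chr2:38588036-38644087 and Psmb10 (ENSMUSG00000031897) chr8:105935735-105938444. The printed window of Psmb5 lies on the minus strand at chr14:54617946-54618245, Psmb6 on the plus strand at chr11:70525107-70525406, Psmb10 on the minus strand at chr8:105938343-105938642, Psmc6 on the plus strand at chr14:45329574-45329873 and Psme4 on the plus strand at chr11:30771525-30771824. Sequences run 5′ to 3′ in the direction of the gene, and capitals mark the core of the antioxidant response element (TGACNNNGC, or its reverse complement), the kind of site bound by the factors Nfe2l1 and Nfe2l2.
Psmb5: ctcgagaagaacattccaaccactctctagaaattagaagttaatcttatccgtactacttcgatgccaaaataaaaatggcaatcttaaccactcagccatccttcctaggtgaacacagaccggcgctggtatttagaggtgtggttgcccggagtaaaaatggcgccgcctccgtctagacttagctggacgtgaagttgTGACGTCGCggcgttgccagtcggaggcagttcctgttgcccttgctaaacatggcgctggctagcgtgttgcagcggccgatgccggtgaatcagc
Psmb6: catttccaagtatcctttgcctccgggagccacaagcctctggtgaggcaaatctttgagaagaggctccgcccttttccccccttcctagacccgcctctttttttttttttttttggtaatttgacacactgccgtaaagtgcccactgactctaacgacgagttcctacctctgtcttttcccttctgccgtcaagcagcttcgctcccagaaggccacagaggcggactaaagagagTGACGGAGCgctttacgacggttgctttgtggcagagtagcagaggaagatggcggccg
Psmb10: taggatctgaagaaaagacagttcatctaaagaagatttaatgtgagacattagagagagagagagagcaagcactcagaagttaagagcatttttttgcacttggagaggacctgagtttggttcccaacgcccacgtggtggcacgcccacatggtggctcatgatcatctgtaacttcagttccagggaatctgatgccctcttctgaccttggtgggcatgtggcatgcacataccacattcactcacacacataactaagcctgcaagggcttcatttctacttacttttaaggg
Psmc6: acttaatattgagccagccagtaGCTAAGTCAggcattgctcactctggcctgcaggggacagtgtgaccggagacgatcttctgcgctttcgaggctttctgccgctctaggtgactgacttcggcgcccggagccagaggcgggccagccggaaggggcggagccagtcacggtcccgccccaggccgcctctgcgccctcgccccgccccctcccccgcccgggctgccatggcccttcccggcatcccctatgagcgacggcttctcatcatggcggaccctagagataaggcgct
Psme4: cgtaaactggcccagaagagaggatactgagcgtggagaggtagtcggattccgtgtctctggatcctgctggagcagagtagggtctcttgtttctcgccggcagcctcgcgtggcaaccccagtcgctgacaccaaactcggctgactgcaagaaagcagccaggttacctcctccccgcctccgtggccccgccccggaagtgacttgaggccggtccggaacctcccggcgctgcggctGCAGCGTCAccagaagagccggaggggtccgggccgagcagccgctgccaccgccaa
The core stood in the promoters of Psmb5 (first base at -47 from the start), Psmb6 (-9), Psmc6 (-227), Psmd12, Psmd9 and Psme4 (-7), which are 6 of the 42 (14.3%), against 12.39% of all 32851 promoters in the table. Both strands were searched. Shares of the 42 count genes, of which 3 had 2 promoters, while shares of all promoters count each promoter singly. It was thus found in promoters of genes that were lower and of genes that were higher, and the letters were not found in the window of Psmb10. The RefSeq starts of Psmb5, Psmb10, Psmc6 and Psme4 lie inside the genes as the table gives them, which shifts these windows into the gene. The promoter of Psmb7 was not analysed here. The ETS core CCGGAAG stood in 15 of the 42 (35.7%, against 8.86% of all promoters), the GC box GGGCGG in 23 (54.8%, against 35.66%) and CCAAT in 15 (35.7%, against 37.41%). Of the 5 promoters printed, those of Psmc6 and Psme4 held the ETS core. Among those not printed, the promoters of Psmc1 and Psmg1 held it too, and both genes were lower with TGF-β1 than in Control.

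In Control neurons the alpha ring, beta ring and cap genes lay between 11.4 and 94.5 FPKM, while 2 of the 3 immunoproteasome genes, Psmb11 and Psma8 were nearly silent. FPKM are per gene length, which here is that of all annotated exons merged. The order between genes therefore depends on annotated length as well as on reads. Psmb1 held 1730 to 2107 reads in Control over 4595 bp, and Psmb5 held 1191 to 1638 over 899 bp. Psmb5 was the highest (94.5 ± 9.80 FPKM, SD, n = 4), followed by Psmd2, a large scaffold of the cap (81.7 ± 3.61), Psmb4 (76.4 ± 4.88) and the ATPase gene Psmc1 (74.1 ± 6.61). Neighbours in this order overlapped in their libraries. The alpha ring ran from 24.4 FPKM (Psma2) to 65.3 (Psma6), and the beta ring from 20.9 (Psmb7) to Psmb5. The ATPases ran from 19.8 (Psmc2) to Psmc1, and the non-ATPase genes from 11.4 (Psmd11) to Psmd2.

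Genes for activators, the inhibitor and assembly factors reached at most the 30.2 FPKM of Psme3. Psme3, which codes for the nuclear activator PA28γ, stood at 30.2 ± 1.61 FPKM in Control, among the cap and core genes and above Psme1 (12.6 ± 0.605) and Psme2 (3.91 ± 0.655), whose products form the interferon-inducible PA28αβ. Psme4, which codes for the activator PA200, stood at 11.5 ± 0.628 and the inhibitor gene Psmf1 at 6.38 ± 0.225. Assembly factors ran from 2.28 (Psmg3) to 17.0 FPKM (Psmg4), apart from Psmd10 (gankyrin) with 3 to 65 reads per library over the 12 libraries. Psme2b is a near copy of Psme2, so that reads could be split between them, and it held at most 1 read in a library.

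**Figure D1:**
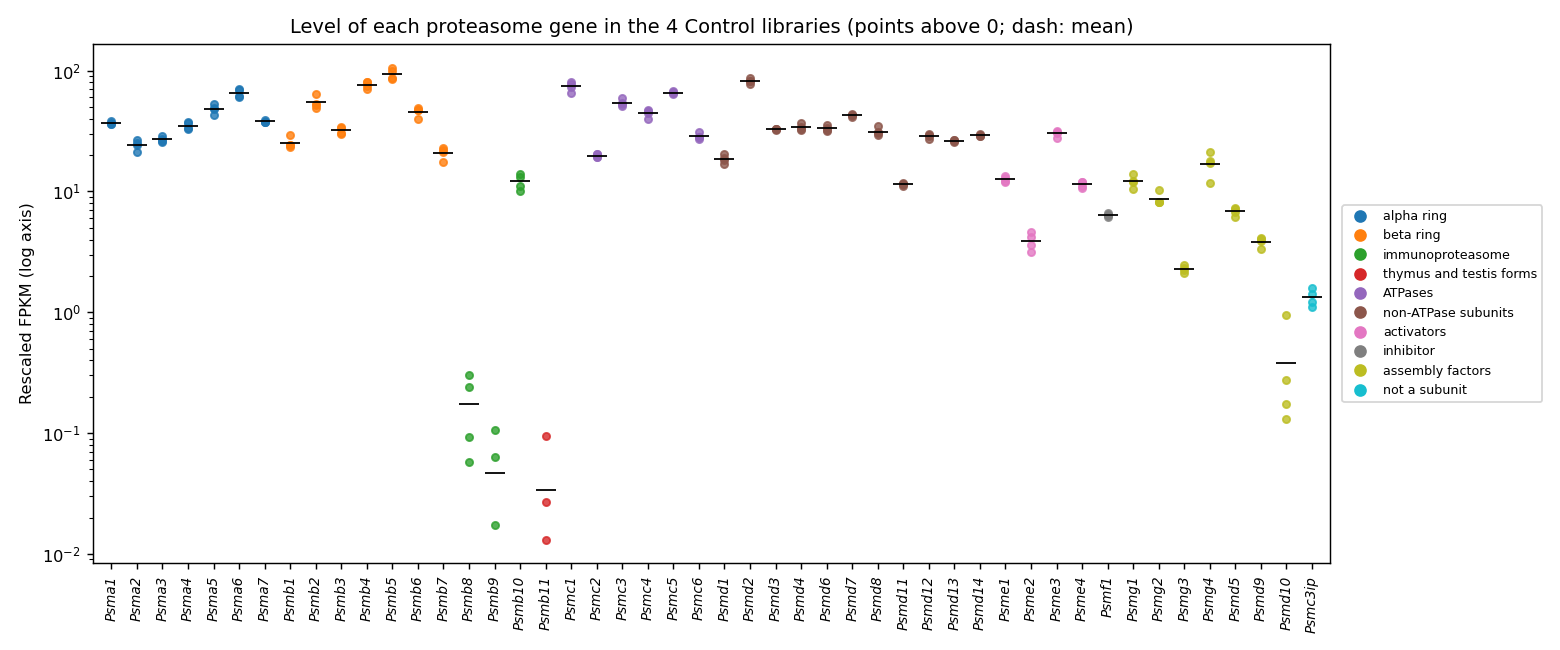
Level of each proteasome gene in Control (rescaled FPKM on a log axis; points are the 4 libraries where the value is above 0, dashes are means, colours are roles; genes at 0 in all 4 are left out). The alpha ring, beta ring and cap genes sit between 11.4 and 94.5 FPKM, and Psmb8, Psmb9 and Psmb11 lie below 0.5 FPKM.

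Psmb10 stood apart from the other immunoproteasome genes. Psmb8 held 16, 14, 5 and 3 reads in the 4 Control libraries, 16, 10, 7 and 8 after Trauma, and 10, 9, 0 and 6 with TGF-β1. Psmb9 held 0, 4, 1 and 6 reads in Control, 4, 4, 2 and 8 in Trauma, and 5, 4, 7 and 6 with TGF-β1. All groups overlapped, and at this depth no difference between them was detectable (a count of 0 allows up to 3 reads, counting error only). The exons of both overlap a gene on the other strand (Gm20496 for Psmb8, Tap1 for Psmb9), and whether reads were counted by strand is not given in the sources used here. Psmb8 reached at most 0.349% of the Psmb5 level and Psmb9 at most 0.317% of the Psmb6 level in any library. In FPKM, Psmb10 stood at 46.3% to 60.7% of Psmb7, a share that depends on their annotated lengths (1705 and 3421 bp). In reads, Psmb10 held 265 to 407 and Psmb7 930 to 1346 in the Control libraries.

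Trauma against Control asks what the scratch changed. No proteasome gene passed the test, and their log2 fold changes were centred near 0. Of the 45 tested, 0 were higher and 0 were lower (limma, adjusted p of at most 0.05; 3.5% of all 15016 genes were higher and 2.32% lower), 3 had an unadjusted p under 0.05 (19.4% of all genes), and limma-voom on recovered reads called 1 lower. The median log2 fold change was -0.0022 over the 45 and -0.0025 over all genes, with 22 genes above 0 and 23 below. The 7 alpha ring genes lay between -0.04 and 0.03 and the 7 beta ring genes between -0.03 and 0.11.

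The gene nearest to the threshold was Psmd14, which codes for the deubiquitinase that removes ubiquitin chains at the cap (Rpn11). It measured 29.6, 28.9, 28.8 and 29.8 FPKM in Control, 24.6, 27.6, 24.2 and 26.6 in Trauma, and 28.7, 27.5, 25.3 and 26.4 with TGF-β1. All 4 Trauma libraries lay under all 4 Control libraries, which held for 1 of the 45 (5.93% of all genes). Trauma lay above Control in this way for 0 of the 45 (6.87% of all genes). Trauma+TGF-β1 overlapped Trauma, while its highest library (28.72 FPKM) lay just under the lowest Control library (28.78). It was not called against Control (-0.12 ± 0.05, limma adjusted p = 0.13). For Trauma against Control the log2 fold change was -0.18 ± 0.05 (SE; limma adjusted p = 0.053, between 0.022 and 0.11 over 10 other settings), and 6 of those settings put it past the threshold. Leaving out Trauma library 2, Trauma+TGF-β1 library 1 or Trauma+TGF-β1 library 3 did so too (adjusted p down to 0.039).

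The other genes with an unadjusted p under 0.05 were both assembly factors, Psmg1 (-0.19 ± 0.09, limma adjusted p = 0.25) and Psmd5 (-0.13 ± 0.05, adjusted p = 0.22). Psmd5, which codes for a chaperone of the ATPase ring, measured 7.32, 6.15, 6.82 and 7.19 FPKM in Control, 6.29, 6.25, 6.16 and 6.38 in Trauma, and 6.75, 6.91, 6.97 and 7.03 with TGF-β1. Control library 2 reached down to the Trauma values, and without it Psmd5 passed (adjusted p = 0.049). Each Trauma+TGF-β1 library lay above each Trauma library.

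In the same comparison 4 of 5 astrocyte markers were higher (Gfap 0.87, adjusted p = 0.00033), 2 of 4 tested oligodendrocyte lineage markers were higher (Olig1 0.47 and Mbp 0.45, adjusted p = 0.0021 and 0.0042) and 2 of 5 neuron markers lower (Tubb3 and Syt1), with summed astrocyte markers of 96.3 to 108 FPKM in Control and 138 to 178 in Trauma. The part of these shifts in the proteasome values was not tested. The proteasome genes of glia and neurons cannot be separated here, and in such bulk RNA fewer cells of a type and less RNA per cell cannot be told apart. The share of reads on the 50 genes was 0.366% to 0.374% in Control and 0.364% to 0.381% in Trauma.

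**Figure D2:**
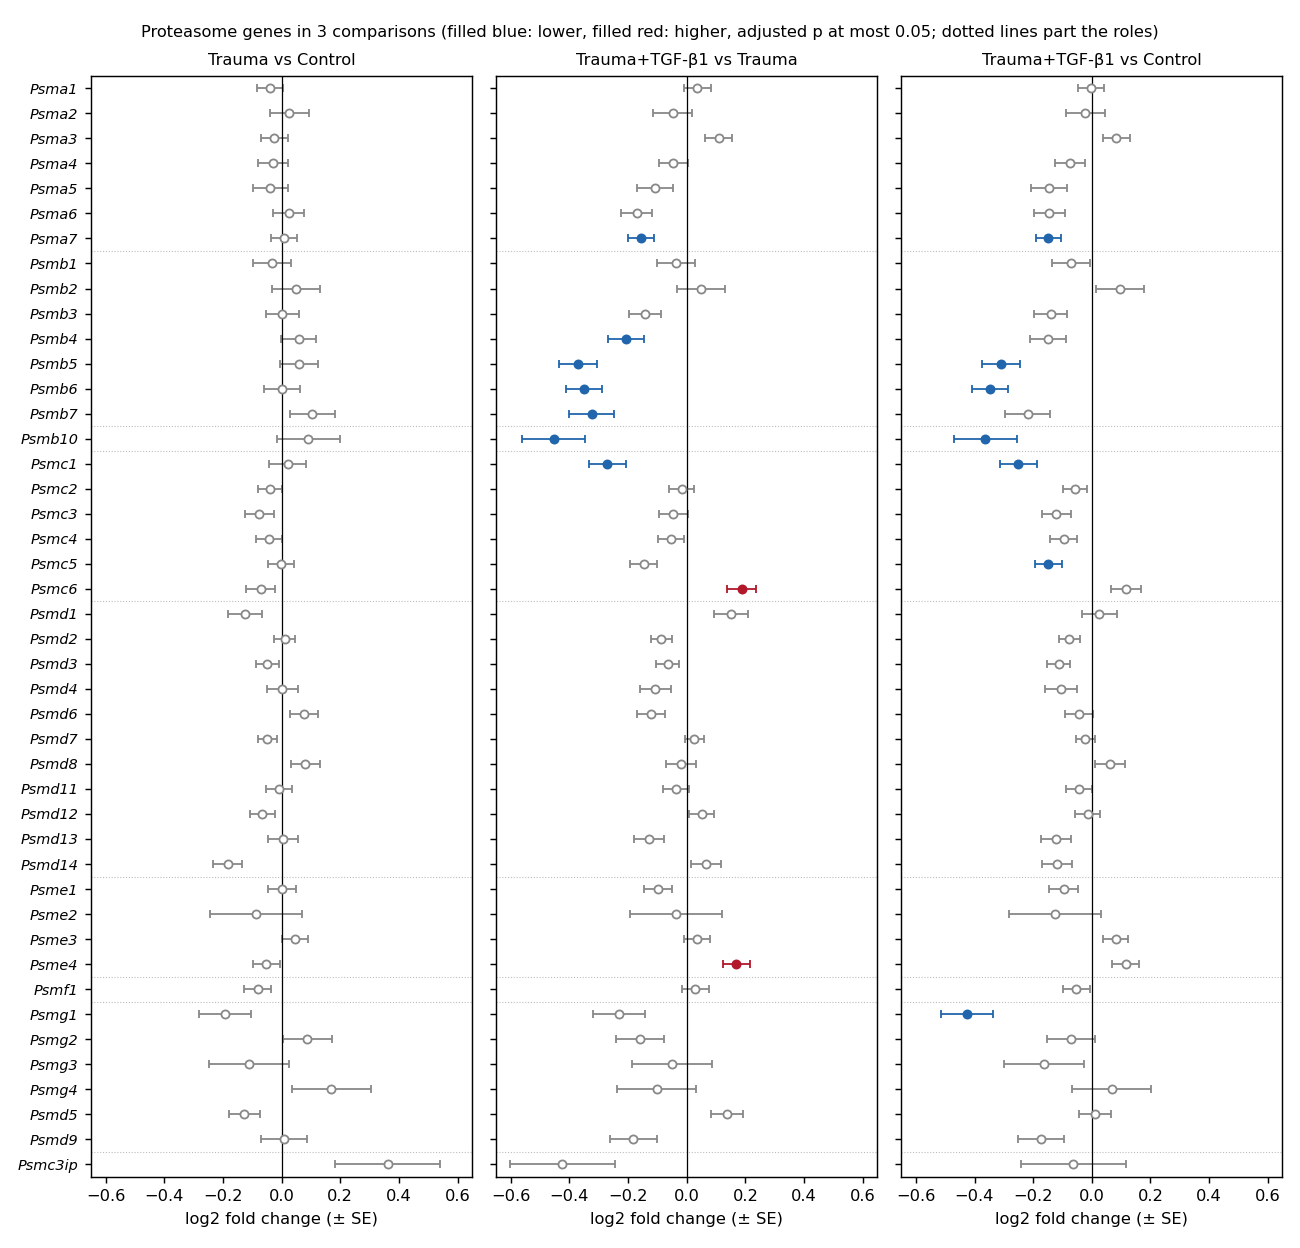
Log2 fold change with its standard error for 44 of the 45 tested genes (Psmd10, with 3 to 65 reads per library, is left out for its wide error) in the 3 comparisons, grouped by role. Trauma against Control has no filled point, and with TGF-β1 the filled points of Psmb10, Psmb5, Psmb6 and Psmb7 lie lowest among the filled ones against Trauma, with the open point of Psmc3ip at -0.42 between them.

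Trauma+TGF-β1 against Trauma asks what TGF-β1 changed in injured neurons. The genes of all 3 constitutive active sites fell by 20.1% to 22.7%, and Psmb10 fell by 27.0%. Of the 45 genes, 7 were lower (15.56%, against 7.63% of all genes) and 2 were higher (4.44%, against 4.64%). Without Trauma library 2, Trauma library 4 or Trauma+TGF-β1 library 2 only 2 were lower, and 4 with quantile normalization or length correction, while the count of higher genes was 0 with no filter or with GC correction. Without any 1 of these 3 libraries 0 were higher, and likewise without Trauma+TGF-β1 library 4. The median log2 fold change was -0.05 over the 45 and 0.0052 over all genes, with 32 genes below 0 and 13 above. The 13 include Psmd10 (0.84 ± 0.76, limma adjusted p = 0.51). Psmd10 reached the mean of 0.5 FPKM only through Trauma+TGF-β1 (1.05 FPKM, against 0.38 in Control and 0.32 in Trauma). Groups did not overlap for 11 genes that were lower (11.8% of all genes) and 4 that were higher (10.6%).

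Psmb5 measured 99.6, 99.5, 91.2 and 103 FPKM in Trauma and 74.9, 73.9, 76.5 and 78.3 with TGF-β1. Every treated library lay under every Trauma library, with 1026 to 1128 reads against 1450 to 1642. The log2 fold change was -0.37 ± 0.06 (SE; 0.773-fold, limma adjusted p = 0.0081). It kept passing under 10 other settings (adjusted p 0.00077 to 0.040) and with each library left out (0.0033 to 0.031). Its exons overlap the microRNA gene Mir686 over 12.1% of their bases on the same strand.

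Psmb6 measured 46.3, 46.4, 44.4 and 45.8 FPKM in Trauma and 36.2, 33.0, 37.3 and 37.1 with TGF-β1. The Trauma libraries lay close together, and every treated library lay under all of them. The log2 fold change was -0.35 ± 0.06 (0.785-fold, limma adjusted p = 0.0083), and it too passed under 10 other settings (0.00086 to 0.030) and with each library left out (0.00073 to 0.030).

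Psmb7 measured 21.9, 23.4, 20.6 and 23.9 FPKM in Trauma and 17.6, 17.5, 17.4 and 19.1 with TGF-β1. The groups did not overlap, at a log2 fold change of -0.32 ± 0.08 (0.799-fold, limma adjusted p = 0.022). It passed under 10 other settings (0.0043 to 0.047), and lost the threshold without Trauma library 2, Trauma library 4 or Trauma+TGF-β1 library 2 (adjusted p up to 0.063). The exons share 11.8% of their bases with Nek6 on the other strand.

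Psmb10, the immunoproteasome counterpart of Psmb7, measured 12.6, 13.0, 11.4 and 14.1 FPKM in Trauma and 8.16, 9.17, 10.3 and 9.66 with TGF-β1. It had the lowest log2 fold change of the 45 (-0.45 ± 0.11, 0.73-fold, limma adjusted p = 0.021), from 345 to 429 reads against 212 to 285. The call was lost without the same 3 libraries as for Psmb7 (adjusted p up to 0.060) and with a correction for GC content (-0.32, adjusted p = 0.055). As a ratio to Psmb7, Psmb10 overlapped between Trauma (0.557 to 0.592) and Trauma+TGF-β1 (0.463 to 0.594).

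**Figure D3:**
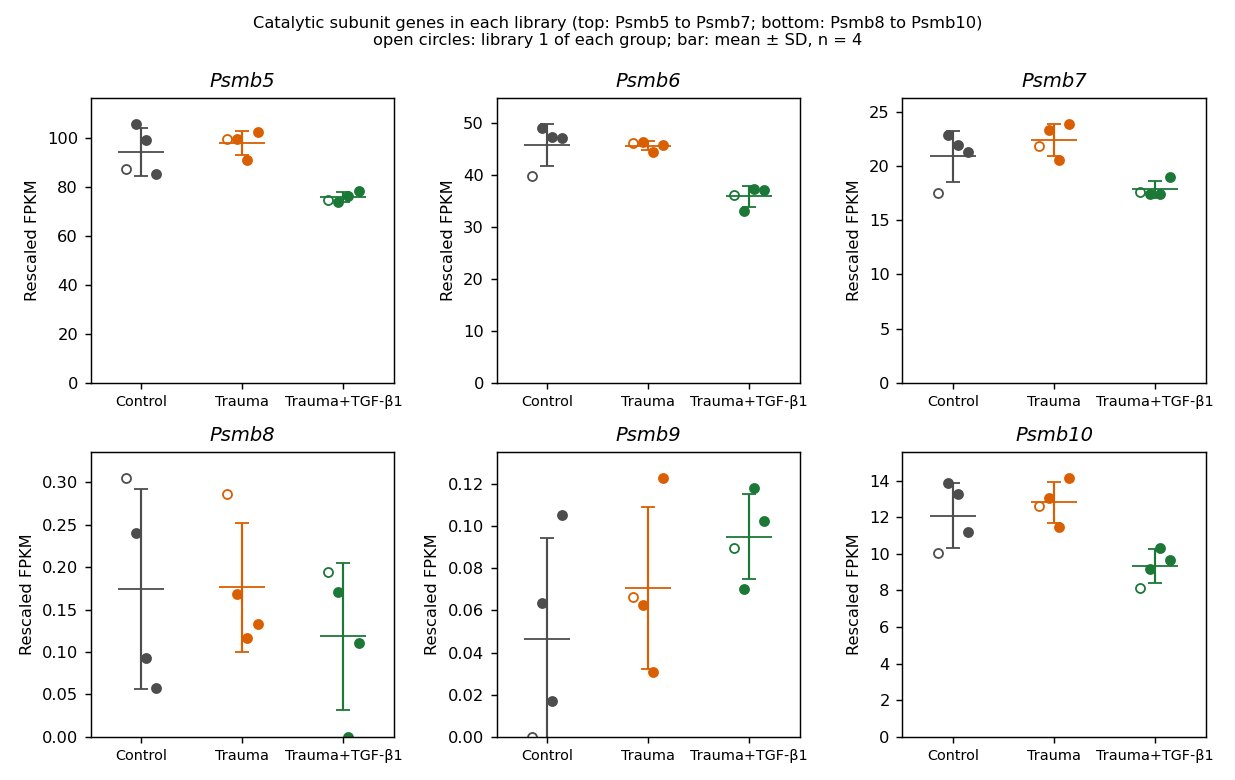
Rescaled FPKM of the 6 catalytic genes in each library (linear axes from 0; open circles are library 1 of each group, bars are means ± SD, n = 4). Trauma+TGF-β1 lies under Trauma for Psmb5, Psmb6, Psmb7 and Psmb10, Control library 1 is low for Psmb6 and Psmb7, and Psmb8 and Psmb9 overlap between all groups at values under 0.5 FPKM.

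The other genes that fell were Psmb4, a beta ring gene without an active site (-0.21 ± 0.06, limma adjusted p = 0.045), Psma7 of the alpha ring (-0.16 ± 0.04, adjusted p = 0.038) and Psmc1, an ATPase whose tail opens the gate (-0.27 ± 0.06, adjusted p = 0.020). Psmb4 and Psma7 lost the threshold under 6 of 10 other settings each, and Psmc1 under 3. Leaving out 1 library did so for 8, 7 and 4 of the 12 libraries (adjusted p up to 0.12, 0.10 and 0.063).

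By role, 4 of 7 beta ring genes fell, 1 of 7 alpha ring genes, 1 of 6 ATPases and 0 of 11 non-ATPase genes, against 7.63% of all genes, and outside the beta ring these counts are too small to be read against that share (4 of the 11 with an unadjusted p under 0.05, 29.4% of all genes). The median log2 fold change was -0.21 in the beta ring, -0.05 in the alpha ring, -0.05 in the ATPases and -0.04 in the non-ATPase genes. The summed FPKM of Psmb5, Psmb6 and Psmb7 over that of the alpha ring was 0.609, 0.600, 0.600 and 0.630 in the Trauma libraries and 0.504, 0.478, 0.508 and 0.509 in the Trauma+TGF-β1 libraries. Over the sum of Psmb1 to Psmb4 it was 0.841 to 0.888 against 0.678 to 0.777. In these sums the transcripts for the active sites were lower relative to both other parts of the core in each treated library than in each Trauma library. The sums reuse the values of Psmb5, Psmb6 and Psmb7 given above and are no further observation. Psmb5 weighs most in them, and they were not corrected for GC content or gene length.

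The genes that rose were Psmc6, an ATPase of the cap, and Psme4. Psmc6 measured 26.5, 27.0, 28.7 and 27.0 FPKM in Trauma and 29.7, 31.2, 30.1 and 33.4 with TGF-β1 (0.19 ± 0.05, limma adjusted p = 0.034). Psme4 measured 11.5, 10.7, 10.8 and 11.2 FPKM in Trauma and 12.3, 12.8, 12.2 and 12.4 with TGF-β1 (0.17 ± 0.05, adjusted p = 0.035). The groups did not overlap for either gene. Neither held with a correction for GC content, under which Psmc6 turned to -0.0064 (adjusted p = 0.96), and leaving out 1 library cost the call for 5 of 12 libraries in Psmc6 and 6 of 12 in Psme4 (adjusted p up to 0.094 and 0.098).

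GC content and gene length moved with the fold changes of this comparison. Across the 45 genes, log2 fold change and the GC content of the longest transcript had a Spearman correlation of -0.487, and across 14699 genes of -0.465 (genes are not independent, and they share the libraries). GC content was 56.6% in Psmb5, 56.5% in Psmb10 and 51.6% in Psmb6, and 37.0% in Psmc6 and 43.9% in Psme4. Psmb7 went against this order, with 40.8% GC and a lower level. After each library was corrected for GC content, Psmb5 fell by 0.24, Psmb6 by 0.31 and Psmb7 by 0.46 on the log2 scale (limma adjusted p = 0.027, 0.010 and 0.020). Gene length moved with the fold changes too, with a Spearman correlation of 0.452 across the 45 genes and 0.217 across all 15016. A correction for length ended the calls of Psma7, Psmb4, Psmc1 and Psme4 (limma adjusted p = 0.14, 0.20, 0.053 and 0.13), while Psmb5, Psmb6 and Psmb7 fell by 0.31, 0.27 and 0.29 on the log2 scale (adjusted p = 0.019, 0.015 and 0.032).

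**Figure D4:**
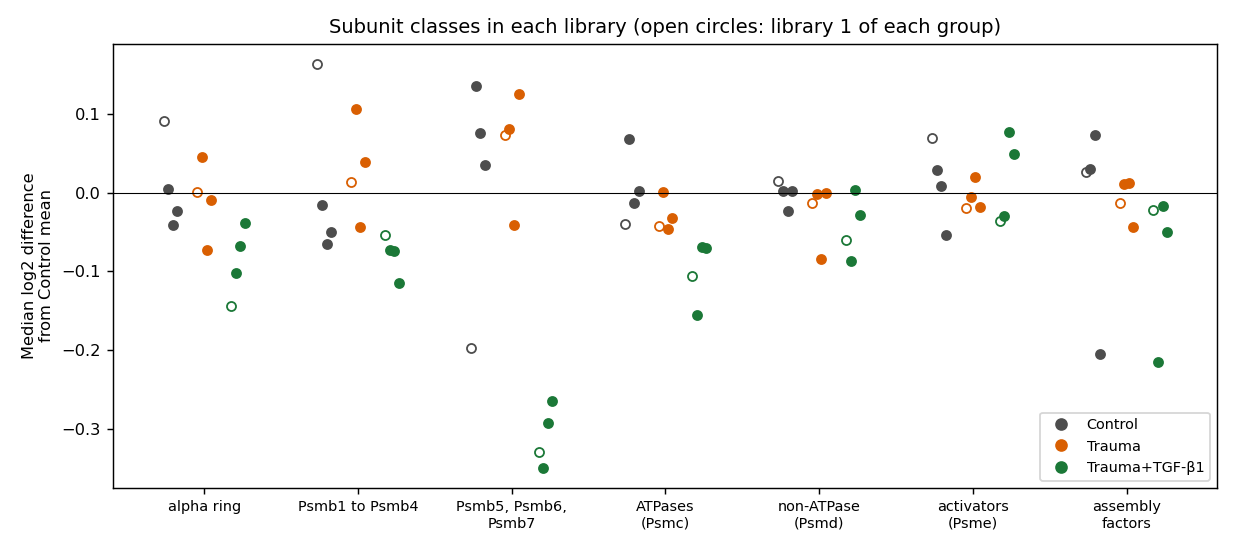
Median log2 difference from the Control mean over the genes of each class, per library (open circles are library 1 of each group). The 4 Trauma+TGF-β1 libraries lie between -0.35 and -0.26 for Psmb5, Psmb6 and Psmb7, Control library 1 lies at -0.20 there and at 0.16 for Psmb1 to Psmb4, and for the non-ATPase genes the groups overlap.

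Trauma+TGF-β1 against Control uses the same treated libraries, so that its values are set beside those above and are no second observation. Of the 45 genes, 7 were lower (15.56%, against 9.46% of all genes) and 0 higher (6.85% of all genes; limma-voom called 8 and 0, and 19 had an unadjusted p under 0.05 in either direction, against 31.2% of all genes). The median log2 fold change was -0.08 over the 45 and 0.0031 over all genes, with 35 genes below 0. Groups did not overlap for 7 genes that were lower (9.38% of all genes) and 1 that was higher (8.64%).

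Psmb6 was lower by 0.35 ± 0.06 on the log2 scale against Control and Psmb5 by 0.31 ± 0.06 (limma adjusted p = 0.0036 and 0.0080), with Control at 39.8, 49.0, 47.4 and 47.1 FPKM for Psmb6 and 87.5, 106, 99.3 and 85.3 for Psmb5. All treated libraries lay under all Control libraries for both genes, and both calls held under 10 other settings and with each library left out. Psmb10 measured 10.0, 13.9, 13.3 and 11.2 FPKM in Control, and 1 treated library reached above the lowest of them. It was lower by 0.36 ± 0.11 on the log2 scale (limma adjusted p = 0.037, up to 0.11 with a library left out, where 7 of 12 libraries cost the call). Psmb7, at 17.5, 22.9, 21.9 and 21.3 FPKM in Control, differed by -0.22 ± 0.08 (interval of 2 SE from -0.37 to -0.07) and missed the threshold (adjusted p = 0.075).

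Control library 1 lay at the edge of its group in some of these genes, while Control library 4 had the lowest Psmb5 (85.3 FPKM) and Psmg4 (11.8). Control library 1 had the lowest Psmb6 and Psmb7 of the 4, at treated levels for Psmb7, though Dixon's test flagged neither. It also had the highest Psmb1 (29.6 FPKM against 23.3 to 24.3) and Psmg2 (10.2 against 8.13 to 8.23). Its ratio of Psmb5, Psmb6 and Psmb7 to the alpha ring was 0.499, within the treated range of 0.478 to 0.509, while the other 3 Control libraries lay at 0.575 to 0.643. Without it, 11 genes were lower and 1 higher. The count of lower genes was 4 without Control library 2, 4 without Trauma library 1 and 3 without Trauma+TGF-β1 library 2.

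Psmg1, which codes for a chaperone that starts the assembly of the alpha ring (PAC1), had the lowest log2 fold change against Control. It measured 12.2, 13.9, 12.0 and 10.4 FPKM in Control, 9.77, 12.2, 10.7 and 9.70 in Trauma, and 9.03, 8.96, 9.34 and 8.54 with TGF-β1. The treated libraries lay under all others, with 184 to 203 reads, while Trauma and Control overlapped. The difference from Control was -0.42 ± 0.09 (limma adjusted p = 0.0083), past the threshold under all 10 other settings and with each library left out (0.0034 to 0.027). Against Trauma it was -0.23 ± 0.09 (adjusted p = 0.11). Of the other assembly factors, Psmg2, Psmg3, Psmg4, Psmd5, Psmd9 and Psmd10 passed in no comparison.

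The remaining calls against Control were Psmc1 (-0.25 ± 0.06, limma adjusted p = 0.020), Psma7 (-0.15 ± 0.04, adjusted p = 0.039) and Psmc5 (-0.15 ± 0.05, adjusted p = 0.045). With a library left out, their calls were lost for 4, 8 and 9 of the 12 libraries (adjusted p up to 0.063, 0.10 and 0.12). The share of reads on the 50 genes was 0.353% to 0.362% in Trauma+TGF-β1, under each Control and each Trauma library.

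Genes that work with the proteasome were called about as often as all genes, and the factors Nfe2l1 and Nfe2l2 were among those called. Of 28 partner genes (assembly, ubiquitin receptors, shuttles, deubiquitinases and regulators), 26 were in the table and tested. In Trauma 1 was higher and 0 lower than in Control (3.5% and 2.32% of all genes). With TGF-β1, 2 were higher and 2 lower against Trauma (4.64% and 7.63% of all genes), and 2 and 2 against Control (6.85% and 9.46%). Nfe2l1, the factor that raises proteasome genes when the protease is inhibited, measured 42.2, 50.6, 48.0 and 48.4 FPKM in Control, 42.8, 42.5, 41.0 and 42.3 in Trauma, and 37.8, 34.2, 38.7 and 35.8 with TGF-β1. Each treated library lay under each of the others, and the log2 fold change was -0.20 ± 0.06 against Trauma (limma adjusted p = 0.034) and -0.37 ± 0.06 against Control (adjusted p = 0.0015). Calls of genes outside the symbol rule were not followed under the other settings or with a library left out.

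Nfe2l2, the antioxidant response factor, went the other way. It measured 3.53, 2.70, 2.66 and 2.75 FPKM in Control, 4.06, 4.44, 3.90 and 4.19 in Trauma, and 5.08, 5.44, 4.89 and 4.42 with TGF-β1. It rose by 0.51 ± 0.10 in Trauma (limma adjusted p = 0.0094) and by 0.75 ± 0.10 with TGF-β1 against Control (adjusted p = 0.00050), and the difference between the injured groups was 0.25 ± 0.10 (adjusted p = 0.11).

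Among the other partners, Sem1, the smallest subunit of the cap, which the symbol rule leaves out, fell by 0.49 ± 0.14 on the log2 scale against Trauma (limma adjusted p = 0.039), with 1 treated library inside the Trauma range. Ecpas, a scaffold that binds the 26S form, and the importin gene Ipo9 rose by 0.18 ± 0.05 and 0.14 ± 0.04 (adjusted p = 0.037 and 0.036). Pomp, the maturation factor that beta ring assembly depends on, differed by -0.18 ± 0.06 (adjusted p = 0.055). Against Control, Fbxo7 was higher by 0.25 ± 0.07 and Vcp, the segregase upstream of the proteasome, lower by 0.15 ± 0.05 on the log2 scale (adjusted p = 0.027 and 0.049).

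Of 10 antigen processing genes that interferon regulates with the immunoproteasome, 7 were tested. H2-D1 was lower by 0.36 ± 0.09 on the log2 scale against Trauma and B2m higher by 0.34 ± 0.10 against Control (limma adjusted p = 0.024 and 0.034), and 0 were called in Trauma against Control (B2m 0.31, adjusted p = 0.089).

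Cell type markers moved between the injured groups too. Against Trauma, Map2 and Snap25 were higher and Tubb3 lower with TGF-β1, Aqp4 was higher and Aldh1l1 lower, and none of the tested microglia and oligodendrocyte lineage markers passed. Summed neuron markers were 1081 to 1154 FPKM in Trauma against 1012 to 1055 with TGF-β1, and summed astrocyte markers 138 to 178 and 161 to 176. The 5 oligodendrocyte lineage markers summed to 38.25 to 40.0 FPKM in Control, 49.37 to 57.09 in Trauma and 49.1 to 56.05 with TGF-β1. The 5 microglia markers summed to 1.99 to 3.48 FPKM over all libraries and the 4 endothelial markers to 0.238 to 0.376, with none at 0 in every library. The part of these shifts in the proteasome results was not tested.

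Psmc3ip, the gene that is no subunit, measured 1.33 ± 0.215 FPKM in Control, 1.75 ± 0.417 in Trauma and 1.27 ± 0.221 with TGF-β1 and passed in no comparison (limma adjusted p = 0.30, 0.14 and 0.85).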

How the data were processed

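Poly-A RNA of 12 libraries was sequenced in pairs on an Illumina NovaSeq. The authors aligned reads with Hisat2 2.0.5, counted them with featureCounts and deposited FPKM per gene, with gene lengths in base pairs (other). The submitters' processing notes name mm10. FPKM times gene length gave whole reads (within 0.05) for 100.0% of values in each library. Over the 17640 genes above 0 in all libraries the deposited FPKM had equal median-of-ratios factors, so that they had already been rescaled.

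The values were then scaled once more by factors of 0.99906 to 1.0115 from 14355 genes with a mean of at least 0.5 and put on a log2 scale with a pseudocount of 0.1, which slightly understates changes of low genes. Genes with a mean of at least 0.5 FPKM (15016) were fitted with limma 3.58.1 in R 4.3.3 (trend, 1 fit of 12 libraries), with Benjamini-Hochberg adjustment over all of them. The fit was tested on simulated data. Alternatives were quantile normalization, the deposited scaling, a pseudocount of 1, a filter at 1 FPKM or none, the replicate number as a block, loess corrections (span 0.3) for gene length or GC content (the latter also together with the block), voom on recovered reads, and each library left out.

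Genes given in every library are the 6 catalytic genes, Nfe2l1 and Nfe2l2 (chosen after their values were seen) and, per comparison, the 3 higher and 3 lower called genes with the largest change, or the 3 smallest adjusted p where none was called. The other genes named were called genes of the fixed lists, or, as Pomp and the genes high in Control library 1, were chosen after their values were seen. Members and lists were chosen with earlier results of these data known. GENCODE vM21 gave GC content and exon overlaps, and RefSeq the promoters. Python 3.11.15 was used with numpy 2.4.6 and pandas 2.3.3, and matplotlib 3.10.9 for plots. Intervals of log2 fold changes are the estimate plus or minus 2 SE. The result of 1 further gene list is not reported here.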

Additional observations from a re-analysis of the deposited data

Results flagged for a closer look

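A single library stood far from the other 3 of its group in 9 of 153 groups tested, which were the 50 genes and their share of reads in each of the 3 conditions (5.88%, where chance gives about 5%, by Dixon's test). In Control library 1, Psmb1 was 29.6 FPKM (others 23.3 to 24.3) and Psmg2 was 10.2 FPKM (others 8.13 to 8.23). In Trauma library 3, Psma6 was 62.5 FPKM (others 67.3 to 67.9) and Psmb2 was 49.2 FPKM (others 57.8 to 59.2). In Trauma library 2, Psme2b was 0.0682 FPKM from 1 read, with 0 in the others. In Trauma+TGF-β1, library 4 had high Psmb7 (19.1 FPKM, others 17.4 to 17.6) and Psme1 (12.4, others 11.51 to 11.55), library 2 had high Psmd1 (20.5, others 18.43 to 18.55) and library 3 had high Psme2 (4.80, others 3.12 to 3.31). The high Psmb7 value lies nearer to Trauma than the other treated libraries do.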

How the results depend on the processing

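Psmb5 and Psmb6 in both comparisons with TGF-β1, and Psmg1 against Control, kept direction and threshold under all 10 alternatives and with each of the 12 libraries left out. In Trauma against Control, 0 genes were higher under all alternatives, and 1 was lower instead of 0 with a filter at 1 FPKM, FPKM as deposited, length correction, GC correction or voom, and 2 with GC correction and the block (range 0 to 1 with a library left out). Its median was -0.0467 with length correction and -0.0455 with GC correction with or without the block. In Trauma+TGF-β1 against Trauma, the 2 higher became 0 with no filter, the replicate block or GC correction with or without the block, and 1 with length correction (0 to 2 with a library left out). The 7 lower became 4 with quantile normalization, length correction or GC correction with the block (2 to 9 with a library left out, the 2 without Trauma library 2, Trauma library 4 or Trauma+TGF-β1 library 2). The median of -0.05 became -0.0092 with quantile normalization and -0.0218 with length correction (-0.0843 to -0.0481 with a library left out). Psmc6 reversed to -0.0064 with GC correction, with or without the block. In Trauma+TGF-β1 against Control, the 7 lower became 4 with no filter, 3 with quantile normalization and 11 with GC correction (3 to 11 with a library left out), the 0 higher became 3 with quantile normalization (0 to 1 with a library left out), and the median of -0.08 became -0.0252 with quantile normalization (-0.1073 to -0.0698 with a library left out). The cause was not tested. Deviations from group means correlated at -0.009 to 0.076 between same-numbered libraries of different groups (12 pairs). Between other libraries of different groups the correlations were -0.091 to 0.073 (36 pairs). The ranges overlapped and the same-numbered pairs lay mostly above 0, so that these values do not settle whether same-numbered libraries are paired. With the replicate block alone, 0 genes were higher and 0 lower in Trauma against Control, 0 and 5 in Trauma+TGF-β1 against Trauma, and 0 and 6 in Trauma+TGF-β1 against Control. Depth limits Psmb8, Psmb9, Psmb11, Psma8, Psme2b and Psmd10, which had between 0 and 65 reads per library.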
